A study of Homo sapiens with 20 samples.

Results

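The RNA levels of 10 genes that run necroptosis, extrinsic apoptosis and pyroptosis were followed through 4 lung cancer cell lines. The genes were *ZBP1*, *RIPK1*, *RIPK3*, *MLKL*, *CASP8*, *FADD*, *CFLAR*, *CASP1*, *GSDMD* and *GSDME*. They were chosen by name from 58233 Ensembl gene identifiers in the count files, and all 10 were found. Cells were HCC366 (lung adenosquamous carcinoma), NCI-H1650 and A549 (lung adenocarcinoma) and NCI-H196 (variant small cell lung cancer). Each line carried Cas9 and an sgRNA against *GFP*, a gene these cells lack, as the control, or against *ADAR*, which encodes the RNA-editing adenosine deaminase ADAR1. HCC366, NCI-H1650 and NCI-H196, the lines that the study calls ADAR1-dependent, were untreated, and RNA was collected from them on day 5 after the lentivirus was added. A549 cells, the line that the study uses as not ADAR1-dependent, received sterile water (vehicle) or 10 ng/mL interferon-β (IFN-β) for 24 h with either sgRNA. There were 20 libraries, 2 for each of 10 conditions, and the 2 of each condition come from different sgRNAs (sg1 and sg2). The cells of a library are a transduced pool, not a clone. No repeat cultures with the same sgRNA were labelled, so every SD, standard error and p value below measures the spread between sgRNAs.

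Necroptosis is a lytic death in which the kinase RIPK3, activated through a short protein motif called the RHIM, phosphorylates MLKL, which then breaks the plasma membrane. ZBP1 is an interferon-inducible sensor of Z-form nucleic acid that carries RHIMs and can recruit RIPK3. It shares the Zα domain with the interferon-inducible isoform of ADAR1 and with no other known human protein. RIPK1 links death receptors to NF-κB, to caspase-8 or to RIPK3, and FADD and caspase-8 (*CASP8*), restrained by cFLIP (*CFLAR*), carry out extrinsic apoptosis and cleave RIPK1 and RIPK3. Pyroptosis is lysis through gasdermin pores: caspase-1 (*CASP1*) cuts gasdermin D (*GSDMD*) downstream of inflammasomes, and caspase-3 cuts gasdermin E (*GSDME*). Many cancer lines are known to have lost *RIPK3* expression.

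Between 62679 (NCI-H196 *GFP* sg2) and 19520189 reads per library fell on genes. In NCI-H196 *GFP* sg2 a value can rest on single reads, and results for that line are given with this in view. In HCC366 *ADAR* sg2, 85.6% of alignments were not unique, and GC content and length accounted for 51.9% of the variance of its log ratios. The targeted gene was checked first. *ADAR* RNA was lower with *ADAR* sgRNAs in both libraries of every condition, with log2 fold changes of −1.29 in NCI-H1650, −1.08 in A549 with vehicle, −0.60 in A549 with IFN-β and −0.41 in NCI-H196, each past an adjusted p of 0.05 in edgeR's quasi-likelihood test. With DESeq2 the 2 A549 calls were lost (adjusted p = 0.129 with vehicle and 0.0959 with IFN-β), and the NCI-H196 call passed in 4 of 9 alternative analyses, lost among others without either of its *ADAR* libraries. *ADAR* is itself induced by IFN-β, and the A549 libraries with *ADAR* sgRNAs and IFN-β still read 691 and 895 CPM (read counts scaled to library size) of it, above the 436 and 437 CPM of vehicle controls. In HCC366 the log2 fold change was −0.84, with an adjusted p of 0.208. RNA at gene level does not measure the cut or the protein. Lung epithelial markers (summed CPM of *EPCAM*, *CDH1*, *KRT8*, *KRT18* and *KRT19*) ran from 1748 to 5664 in A549, HCC366 and NCI-H1650, whereas NCI-H196 read 58.6 to 72.2. In A549 and HCC366 these sums came mainly from *KRT8* and *KRT18*, since *EPCAM* had at most 6 and 7 reads in any of their libraries and *KRT19* at most 1.33 CPM in A549. *KRT19* was at 0 reads in every HCC366 and NCI-H196 library. Of the neuroendocrine markers, *INSM1* had no read in NCI-H196 and *NCAM1* read up to 15.5 CPM there, against at most 2.62 CPM in the other lines. Mesenchymal markers summed to between 5145 and 5498 CPM in NCI-H196, and the squamous markers summed to only 1.55 to 8.41 CPM in HCC366. Leukocyte markers summed to at most 13.2 CPM in any library, with *CD3E* and *LYZ* at 0 throughout. The part of these features in the results below was not tested unless a value is given.

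**Figure D1:**
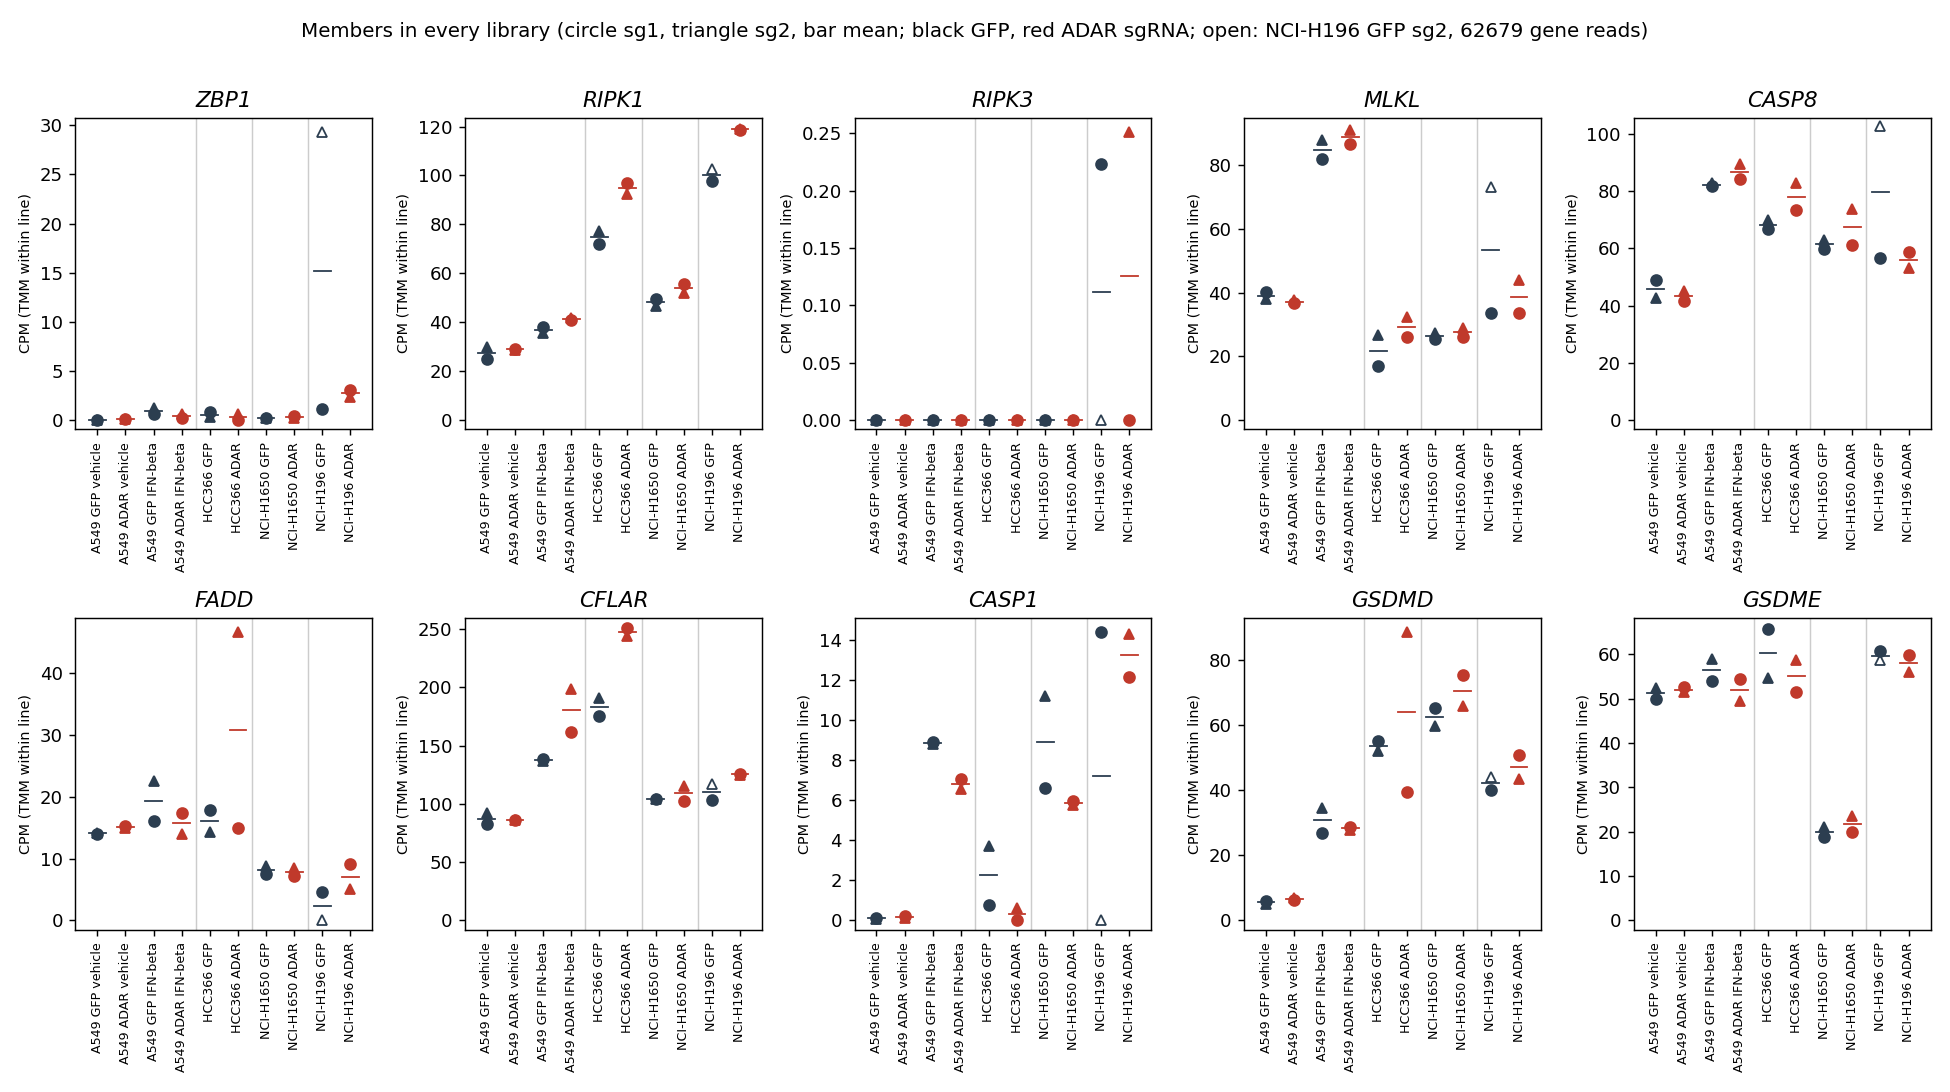
Level of each of the 10 genes in the 20 libraries, in CPM (read counts scaled to library size by TMM within a line) on a linear axis that differs between panels; circles are sg1, triangles sg2, short bars the mean of the 2 libraries, dark symbols *GFP* and red symbols *ADAR* sgRNAs, with the shallow library NCI-H196 *GFP* sg2 open. *RIPK3* stays at or near 0 everywhere, *MLKL*, *CASP8*, *CFLAR*, *CASP1* and *GSDMD* stand higher in the IFN-β libraries of A549, and *ZBP1* stays below 1.25 CPM outside NCI-H196.

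The sensor and the kinase that start ZBP1-driven necroptosis had the fewest reads of the 10 genes over the 20 libraries together. *RIPK3* (ENSG00000129465, minus strand, chr14:24805231-24809228 of GRCh37) had 4 reads among 141759973 gene reads in all 20 libraries. These were 2 reads in NCI-H196 *GFP* sg1 and 2 in NCI-H196 *ADAR* sg2, and the other 18 libraries had none. Pooled over its 4 libraries, NCI-H196 stood at 0.214 CPM (exact Poisson 95% interval 0.0584 to 0.548). The 8 A549 libraries, vehicle and IFN-β together, gave 0 of 96559159 reads, which at a floor of 3 reads allows up to 0.0311 CPM. By the same floor, HCC366 gave 0 of 7587193 reads, which allows up to 0.395 CPM, and NCI-H1650 gave 0 of 18940843, which allows up to 0.158 CPM. *RIPK3* RNA was thus not detectable at this depth in 3 lines, with or without *ADAR* sgRNAs and, in A549, with or without IFN-β. These limits cover counting error only, and no test was run on *RIPK3*.

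*ZBP1* (ENSG00000124256, minus strand, chr20:56178902-56195632) had 85 reads in all, with 10 or more in only 4 libraries. In A549 control cells it had 0 and 0 reads after vehicle and 7 (sg1) and 20 (sg2) after IFN-β, or 0.66 and 1.24 CPM. Set against a floor of 3 reads over the vehicle libraries, the pooled level after IFN-β was 7.19-fold higher. That ratio leaves out the counting error of the IFN-β reads, so it is unlike the interval given next. In A549 cells with *ADAR* sgRNAs it had 1 and 1 reads after vehicle and 2 and 12 after IFN-β, a ratio of 4.28 with a counting interval of 0.982 to 38.8. The interval holds 1, so with *ADAR* sgRNAs a rise was not resolved at this depth. *ZBP1* fell below the filter on low counts in A549. Without that filter, the IFN-β effect passed the test in control cells (edgeR's quasi-likelihood test, adjusted p = 2.58e-04) and did not with *ADAR* sgRNAs (adjusted p = 0.298). The test of the difference between these effects gave an adjusted p of 0.432, so they were not shown to differ.

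In the ADAR1-dependent lines, *ZBP1* was read at most 1 time per HCC366 library and 1 to 2 times per NCI-H1650 library. NCI-H196 was the only line with *ZBP1* above 2 CPM in an *ADAR* library, at 3.05 CPM (sg1, 3 reads) and 2.38 CPM (sg2, 19 reads). Its controls gave 1.12 CPM (sg1, 10 reads) and 29.3 CPM (sg2), the latter from 2 reads in the shallow library. The control values therefore span both *ADAR* values. The log2 fold change with *ADAR* sgRNAs was 0.86 (standard error 0.57, adjusted p = 0.325). Between control libraries, *ZBP1* was higher in NCI-H196 than in A549 (adjusted p = 2.78e-05 without the filter), where A549 had no read.

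Levels in the *GFP* controls were compared next, as the starting point of each line. For this comparison the 8 control libraries (A549 with vehicle) were scaled together, which placed the A549 values 1.28 to 1.31 times higher than the within-line CPM used elsewhere and moved the other lines by factors of 0.805 to 1.03. Of the 10 genes, 8 passed the filter, and 7 of these 8 differed among the 4 lines (edgeR's quasi-likelihood F-test, *CASP8* not, adjusted p = 0.131). DESeq2 lost *MLKL* and *FADD* among these (adjusted p = 0.240 and 0.156). *CASP1*, also among these, passed the filter through the lines where it is high. Its calls are therefore no support for a difference, and it is described by its reads below. Over all genes tested, 92.1% differed among the lines, so such a difference is the common state. A549 also differed from the other lines in vehicle and in the time since transduction, and these cannot be told apart from the line. In bulk RNA, fewer cells that express a gene and less RNA per cell cannot be told apart either. Against A549, 5 members differed in HCC366 (64.9% of all genes), 6 in NCI-H1650 (68.3%) and 5 in NCI-H196 (70.5%). Between the ADAR1-dependent lines, 5 differed for HCC366 and NCI-H1650 (56.7%), 5 for HCC366 and NCI-H196 (57.3%) and 4 for NCI-H1650 and NCI-H196 (61.7%). Each count of a pair includes *CASP1*, except that for NCI-H1650 and NCI-H196. All 14 calls that involve NCI-H196 were lost when its deeper control library (sg1) was left out, and 0 were lost without the shallow one (sg2).

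*MLKL* (ENSG00000168404, minus strand, chr16:74705753-74734858), the membrane executioner, was highest in A549. Its controls gave 51.3 and 49.7 CPM in A549, 31.6 and 59.0 in NCI-H196, 24.2 and 25.7 in NCI-H1650 and 17.6 and 27.5 in HCC366 (sg1 and sg2). HCC366 and NCI-H1650 lay wholly below A549, by 1.05 and 1.02 on the log2 scale (adjusted p = 2.52e-07 and 6.33e-09). NCI-H196 was also lower in the fit (−0.64, adjusted p = 7.25e-04), although its shallow library, with 5 *MLKL* reads, read above A549. DESeq2 kept the directions but passed none of these 3 differences (adjusted p = 0.0640, 0.0942 and 0.495). Neighbours below A549 in this order did not differ beyond their spread (adjusted p = 0.0885 and 0.906).

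*RIPK1* (ENSG00000137275, plus strand, chr6:3064058-3115421) ran the other way and was lowest in A549. Its controls gave 31.9 and 38.8 CPM in A549, 47.2 and 44.1 in NCI-H1650, 74.2 and 79.9 in HCC366 and 91.8 and 82.6 in NCI-H196. NCI-H196 and HCC366 did not differ (adjusted p = 0.229), and HCC366 was higher than NCI-H1650 by a log2 difference of 0.77 (adjusted p = 7.41e-06, 0.0553 with DESeq2). The step from NCI-H1650 to A549 (0.35, adjusted p = 0.0269) was the weakest of these and passed in only 3 of 9 alternative analyses.

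The adaptor *FADD* (ENSG00000168040, plus strand, chr11:70049402-70053496) was higher in A549 and HCC366 than in the other lines. It gave 17.9 and 18.5 CPM in A549, 18.4 and 14.8 in HCC366, 7.16 and 8.33 in NCI-H1650, and 4.30 and 0 in NCI-H196. A549 and HCC366 did not differ (adjusted p = 0.530), HCC366 exceeded NCI-H1650 by 1.04 on the log2 scale (adjusted p = 0.00164, 0.328 with DESeq2), and NCI-H1650 exceeded NCI-H196 by 0.86 (adjusted p = 0.0257), which passed in only 4 of 9 alternative analyses. *CASP8* (ENSG00000064012, plus strand, chr2:202098166-202226559) was the most even of the tested genes, with controls between 53.3 and 82.6 CPM in all lines. *CFLAR* (ENSG00000003402, plus strand, chr2:201980877-202041410), counted over all its isoforms, gave 180 and 197 CPM in HCC366 and between 94.4 and 120 CPM in the other lines. Only HCC366 stood apart (0.75 above A549, adjusted p = 7.20e-08), and the other lines did not differ between neighbours (adjusted p = 0.164 and 0.878).

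The pyroptosis gene *GSDMD* separated A549 from the ADAR1-dependent lines, and *CASP1* had its fewest control reads in A549. *GSDMD* (ENSG00000104518, chromosome 8) gave 7.77 and 6.77 CPM in A549, against 37.8 and 35.4 in NCI-H196, 56.7 and 53.6 in HCC366 and 62.1 and 56.3 in NCI-H1650. No dependent library overlapped A549, and the log2 differences from A549 were 2.39, 2.93 and 3.05 (adjusted p = 1.26e-24, 1.27e-33 and 5.20e-41). HCC366 and NCI-H1650 did not differ (adjusted p = 0.578). *CASP1* (ENSG00000137752, minus strand, chr11:104896124-104905977), whose sequence is nearly shared with *CARD16* and *CARD17*, had 1 read in each A549 control library. It had 1 and 13 reads in HCC366, 30 and 47 in NCI-H1650, and 129 and 0 in NCI-H196, or 0.80 and 3.85, 6.32 and 10.6, and 13.5 and 0 CPM. The call of HCC366 against A549 was lost without HCC366 *GFP* sg2. *GSDME* (ENSG00000105928, minus strand, chr7:24737974-24797559) was low in a single line, NCI-H1650, with 17.9 and 19.8 CPM against 47.2 to 68.5 CPM elsewhere. It was 1.59 lower there on the log2 scale than in NCI-H196, the next line (adjusted p = 4.12e-15).

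Per kilobase of exon, which allows a comparison between genes, the order of the genes depended on the line and on the length used. With the union of all annotated exons, *FADD* read 10.7 ± 0.237 CPM per kb (SD, n = 2) in A549 and *MLKL* 8.88 ± 0.204, with *GSDMD* at 1.43 ± 0.140 and *CASP1* at 0.032 ± 0.015. With the length of the canonical transcript, which for *FADD* is the same, *GSDME* led in A549 at 29.5 ± 1.42, and *FADD* came 4th. *GSDMD* had the highest mean by either length in NCI-H1650 (11.6 ± 0.809 with the union) and in HCC366 (10.8 ± 0.428), where the union values of *FADD* (9.71 ± 1.47) overlapped it. In NCI-H196 *CASP8* read 9.39 ± 2.87 and *MLKL* 7.96 ± 3.41, which their spread does not separate. The union length (22478 bases for *CFLAR*) lowers the value of genes with many rarely used exons.

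**Figure D2:**
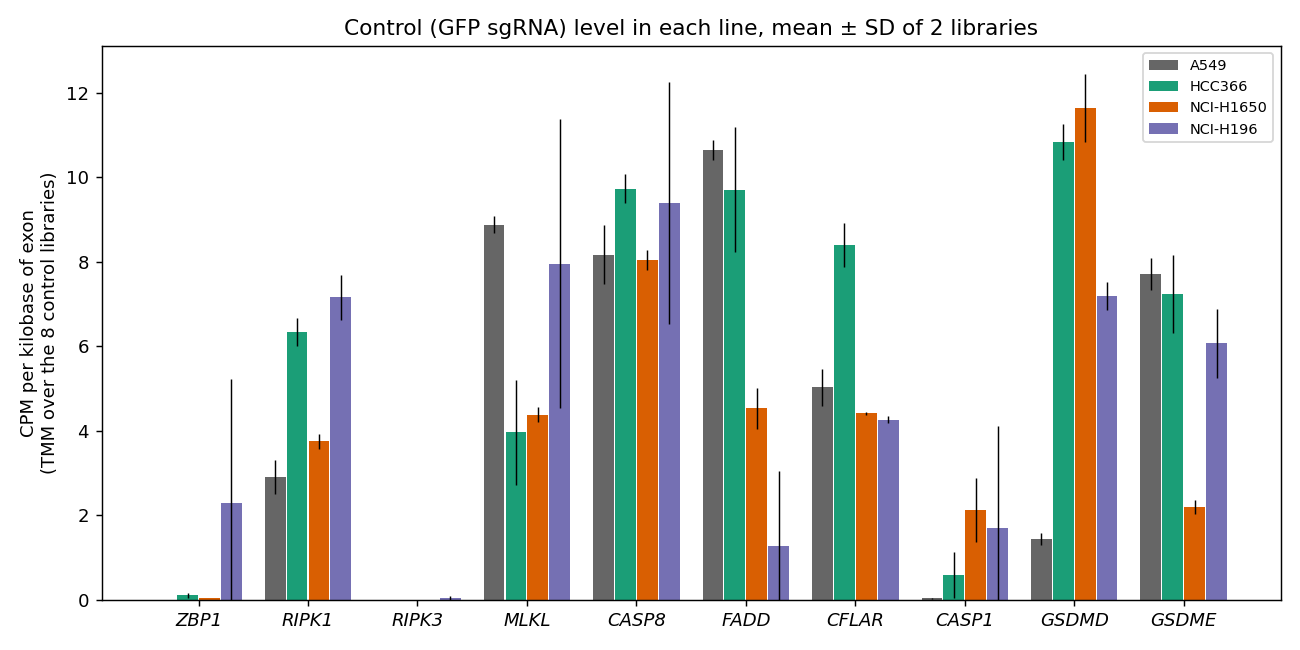
CPM per kilobase of exon (linear axis, scaled over the 8 control libraries) of the 10 genes in the *GFP* controls of each line; bars are means and error bars the SD of 2 libraries. *GSDMD* and *CASP1* are lowest in A549, *GSDME* is lowest in NCI-H1650, and the wide bars of NCI-H196 reflect its library of 62679 reads.

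IFN-β in A549 asked which of these genes answer interferon, with *GFP* and with *ADAR* sgRNAs. *CASP1* passed the filter on low counts only through its IFN-β libraries, so it is described by its reads and left out of the counts. In control cells, 4 of the 7 other tested members rose and 0 fell, namely *GSDMD*, *MLKL*, *CASP8* and *CFLAR*, where 5.70% of all 15449 genes tested changed in either direction. With *ADAR* sgRNAs, 5 of 7 rose and 0 fell, the same genes and *RIPK1*, where 24.5% of all genes changed. The median log2 fold change of these 7 was 0.65 in control and 1.00 in *ADAR* cells, against 3.16e-05 and −0.0032 over all genes. *RIPK3* and *ZBP1* are described above, and neither entered this test. The changes with the 2 targets come from separate libraries.

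Among the other tested members, the pyroptosis gene *GSDMD* changed most, and *CASP1* is given by its reads. *CASP1* went from 1 and 1 reads after vehicle to 95 (sg1) and 142 (sg2) after IFN-β in control cells, that is from 0.13 and 0.07 CPM to 8.91 and 8.82. Over the reads of both libraries the ratio was 94.7 (counting interval 25.9 to 786). With *ADAR* sgRNAs it went from 2 and 1 reads to 67 and 126, a ratio of 39.3 (13.3 to 192). The vehicle counts of 1 or 2 reads set the width of both intervals. *GSDMD* went from 6.07 and 5.18 CPM to 26.9 and 34.7 in control cells, a 5.57-fold rise (log2 2.48, standard error 0.20, adjusted p = 3.41e-11). With *ADAR* sgRNAs it went from 6.34 and 6.81 CPM to 28.7 and 27.8, a 4.28-fold rise (log2 2.10, standard error 0.20, adjusted p = 1.03e-09). With all 20 libraries scaled together, A549 after IFN-β read 32.5 and 42.2 CPM with *GFP* and 33.7 and 32.9 with *ADAR* sgRNAs. The ADAR1-dependent lines read from 35.0 (NCI-H196 *GFP* sg1) to 78.1 CPM (HCC366 *ADAR* sg2, the library with 85.6% non-unique alignments). The exception was NCI-H196 *GFP* sg2 at 31.4 CPM, which rests on 3 reads. This comparison was not tested. *GSDME*, cut by caspase-3 rather than caspase-1, gave 50.01 and 52.5 CPM after vehicle and 54.1 and 59.1 after IFN-β in control cells (log2 0.14, adjusted p = 0.652).

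*MLKL* rose in both arms, and the difference between the arms did not pass (adjusted p = 0.727). It went from 40.1 and 38.0 CPM to 82.1 and 87.9 in control cells (2.18-fold, log2 1.12, standard error 0.12, adjusted p = 1.30e-08) and from 36.7 and 37.6 to 86.7 and 91.3 with *ADAR* sgRNAs (2.40-fold, log2 1.26, standard error 0.12, adjusted p = 9.08e-10). No vehicle library overlapped an IFN-β library. *MLKL* was thus induced in a line where *RIPK3*, the kinase that activates its protein, had 0 reads. *CASP8* went from 49.0 and 42.5 CPM to 81.7 and 82.7 (1.81-fold, adjusted p = 3.43e-06) in control cells and from 41.5 and 45.2 to 84.1 and 89.5 (2.00-fold, adjusted p = 1.09e-07) with *ADAR* sgRNAs.

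*CFLAR*, the inhibitor of caspase-8, went from 82.7 and 91.8 CPM to 138 and 137 in control cells (1.57-fold, log2 0.65, standard error 0.11, adjusted p = 8.85e-05). With *ADAR* sgRNAs it went from 86.0 and 86.1 to 161 and 199 (2.10-fold, log2 1.07, standard error 0.11, adjusted p = 6.76e-09), the highest *CFLAR* values of the A549 libraries. An antisense gene, *CFLAR-AS1*, shares 777 exon bases with it and had 859 reads in all against 18213 for *CFLAR*. *RIPK1* moved less, from 24.9 and 29.7 CPM to 38.1 and 35.6 in control cells (log2 0.42, standard error 0.14, adjusted p = 0.0809) and from 29.3 and 28.7 to 40.8 and 41.9 with *ADAR* sgRNAs (log2 0.51, standard error 0.14, adjusted p = 0.00687). Its libraries do not overlap in either arm, but the second call was lost without *ADAR* IFN-β sg2 (adjusted p = 0.0803) or without *ADAR* vehicle sg2 (adjusted p = 0.0731), and in a single fit of all 20 libraries (adjusted p = 0.0777). The difference between the arms did not pass (adjusted p = 0.856). *FADD* gave 13.99 and 14.1 CPM after vehicle and 16.1 and 22.5 after IFN-β in control cells (log2 0.47, adjusted p = 0.205), and passed only without *GFP* IFN-β sg1 (log2 0.68, adjusted p = 0.0328). With *ADAR* sgRNAs the *FADD* difference was 0.04 (adjusted p = 0.912).

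**Figure D3:**
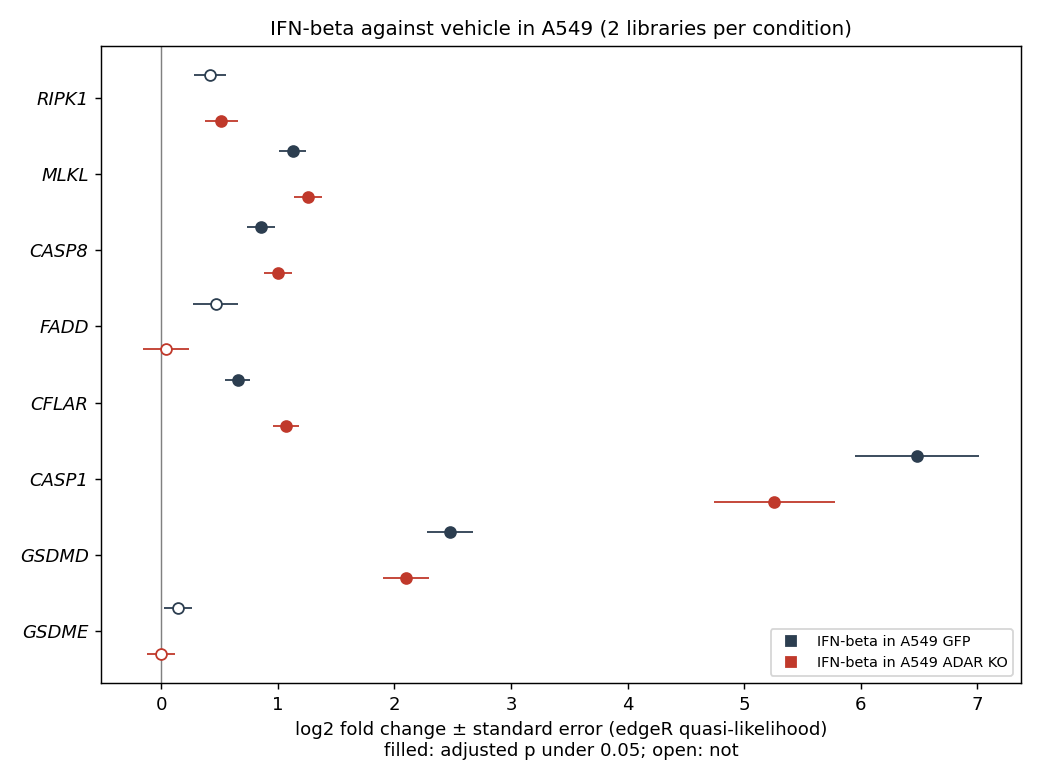
Log2 fold change of IFN-β against vehicle (linear axis of log2 values, with standard errors) for the 8 tested genes in A549 with *GFP* (dark) and *ADAR* (red) sgRNAs; filled symbols passed an adjusted p of 0.05 in edgeR's quasi-likelihood test. *CASP1*, which entered through its IFN-β libraries alone, and *GSDMD* lie farthest to the right, *GSDME* lies at 0.14 and −0.0039, and *RIPK1* is filled in the *ADAR* arm and open in the other.

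Interferon-activated factors are known to bind short motifs near the start sites of their target genes. Promoter sequences are therefore shown for *CASP8* and *MLKL*, which rose with IFN-β in both A549 arms. One is also shown for *RIPK1*, which passed only with *ADAR* sgRNAs. The RefSeq table (GRCh38.p14) holds 13 promoter entries for 6 of the 10 genes, *RIPK1*, *MLKL*, *CASP8*, *FADD*, *CFLAR* and *GSDME*, and *ZBP1*, *RIPK3*, *CASP1* and *GSDMD* have no entry. Each entry spans 250 bases before to 50 bases after a start site. It was searched on both strands for GAAA, any 2 bases and GAAA again, the core of the interferon-stimulated response element. It was found in a *CASP8* entry, on the opposite strand from 3 bases before the start, and in 2 overlapping *RIPK1* entries, where it is the same 10 bases. Other entries of *CASP8* and *RIPK1* did not hold the motif, and the entries printed for these genes are ones that did. The *MLKL* entry did not hold it, nor did the entries of *CFLAR*, *FADD* and *GSDME*. *CFLAR*, which also rose in both arms, is not printed. Of all 35116 promoters in the table, 3.57% held this motif, and 4.38% of their 27305 genes had it in any entry. A match is a description of letters and not a measured binding site, and an absent match concerns this window alone. Capitals mark the matches in the stretches printed here, which run from 220 bases before the start site through the first 20 transcribed bases, at chr2:201233243-201233482 (plus strand), chr6:3068158-3068397 (plus strand) and chr16:74700843-74701082 (minus strand).
CASP8: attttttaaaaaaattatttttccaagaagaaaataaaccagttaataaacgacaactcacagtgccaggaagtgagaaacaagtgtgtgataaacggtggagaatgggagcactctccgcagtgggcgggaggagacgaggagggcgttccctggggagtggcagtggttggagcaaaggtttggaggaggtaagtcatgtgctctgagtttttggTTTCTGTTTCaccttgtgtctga
RIPK1: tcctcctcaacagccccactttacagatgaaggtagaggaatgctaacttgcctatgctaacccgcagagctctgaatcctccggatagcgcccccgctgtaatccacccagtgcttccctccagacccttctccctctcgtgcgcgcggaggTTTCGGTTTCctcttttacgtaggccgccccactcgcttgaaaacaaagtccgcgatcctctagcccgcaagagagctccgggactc
MLKL: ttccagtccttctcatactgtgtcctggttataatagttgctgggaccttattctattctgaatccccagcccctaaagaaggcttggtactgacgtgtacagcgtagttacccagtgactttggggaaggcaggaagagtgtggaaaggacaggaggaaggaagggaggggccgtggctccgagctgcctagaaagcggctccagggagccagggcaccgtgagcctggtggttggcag

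*ADAR* KO in the ADAR1-dependent lines asked whether sgRNAs against the gene of ADAR1, the other Zα protein, move these genes. In HCC366 0 of 7 tested members passed edgeR's quasi-likelihood test (1.25% of all genes did), with 0 at an unadjusted p under 0.05 and 0 by DESeq2. In NCI-H1650 0 of 8 passed (8.60% of all genes), with 1 at an unadjusted p under 0.05 and 0 by DESeq2. In NCI-H196 0 of 9 passed (17.8% of all genes), with 2 at an unadjusted p under 0.05 and 0 by DESeq2. In a joint edgeR fit of the 3 lines 0 of 9 passed (5.30% of all genes), with 0 at an unadjusted p under 0.05. DESeq2 called 2 in that fit, *RIPK1* (log2 0.26, adjusted p = 0.0306) and *CFLAR* (0.26, adjusted p = 0.0440). *ZBP1*, *FADD* and *CASP1* in NCI-H196, and *ZBP1* in the joint fit, passed the filter through *ADAR* libraries alone. Without them 0 of 6 passed the edgeR test in NCI-H196 and 0 of 8 in the joint fit. The medians over the other tested members were 0.34, 0.09, 0.21 and 0.16 in the order of the fits above. Over all genes they were −0.0069, 0.0066, −0.0039 and −0.0066.

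*CFLAR* and *RIPK1* had positive estimates in each line, and none passed. *CFLAR* gave 175 and 191 CPM in HCC366 controls and 251 and 244 with *ADAR* sgRNAs (log2 0.44, standard error 0.30, adjusted p = 0.459). In NCI-H196 it gave 103 and 117 against 126 and 125 (0.27, standard error 0.11, adjusted p = 0.0689), and in NCI-H1650 104 and 105 against 103 and 115 (0.06, adjusted p = 0.821). The libraries of both targets were apart in HCC366 and NCI-H196 and overlapped in NCI-H1650. The *CFLAR* value of NCI-H196 *GFP* sg2 rests on 8 reads. With offsets for GC content and length, the HCC366 difference in *CFLAR* was 0.69 and passed (adjusted p = 0.0490). *RIPK1* gave 72.0 and 77.4 CPM against 97.1 and 92.5 in HCC366 (0.34, standard error 0.33, adjusted p = 0.595), 97.6 and 103 against 119 and 119 in NCI-H196 (0.28, standard error 0.11, adjusted p = 0.0561), and 49.4 and 46.8 against 55.7 and 51.9 in NCI-H1650 (0.16, adjusted p = 0.526). All 3 lines had both *ADAR* values above both controls, but the value of NCI-H196 *GFP* sg2 rests on 7 *RIPK1* reads. The share of all genes whose libraries separate in this way was not counted. In NCI-H196 neither *RIPK1* nor *CFLAR* passed in any of 9 alternative analyses.

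*MLKL* gave 17.04 and 26.6 CPM in HCC366 controls and 26.2 and 32.3 with *ADAR* sgRNAs (log2 0.39, standard error 0.40, adjusted p = 0.617), so the groups overlap. In NCI-H1650 it gave 25.4 and 27.2 against 26.2 and 28.8 (0.06, adjusted p = 0.874). In NCI-H196 it gave 33.6 and 73.3 against 33.5 and 43.9 (0.30, standard error 0.16, adjusted p = 0.196), where the fit weighs the shallow library little. HCC366 had the widest standard errors of the 3 lines. *FADD* in HCC366 had the largest estimate, 17.8 and 14.3 CPM against 14.9 and 46.6 (0.98, standard error 0.53, adjusted p = 0.353). That estimate rests on *ADAR* sg2, the library with 85.6% non-unique alignments. Without *ADAR* sg1 the *FADD* difference was 1.57 and passed, as did *GSDMD* (0.72, adjusted p = 0.00581), whose values were 55.0 and 51.9 CPM against 39.4 and 88.6. Without *ADAR* sg2 they were −0.04 and −0.41.

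Of the pyroptosis genes, *CASP1* fell in none of the lines by the test. In NCI-H1650 it gave 6.62 and 11.2 CPM in controls and 5.94 and 5.77 with *ADAR* sgRNAs, lower in both (log2 −0.59, standard error 0.29, adjusted p = 0.213). HCC366 had 14 *CASP1* reads in controls and 1 with *ADAR* sgRNAs, 13 of them in 1 library, and was not tested. In NCI-H196 it gave 14.4 and 0 CPM against 12.2 and 14.3 (−0.02, adjusted p = 0.964). *GSDMD* differences were 0.18 in NCI-H1650 and 0.15 in NCI-H196 (adjusted p = 0.438 and 0.552), *GSDME* differences ran from −0.12 to 0.12 over the 3 lines (adjusted p from 0.701 to 0.872), and *CASP8* differences from −0.08 to 0.19 (adjusted p from 0.593 to 0.774). The test of whether the KO effect differs among the 3 lines called 0 of 9 members (0.701% of all genes; edgeR's quasi-likelihood test, 0 at an unadjusted p under 0.05, 0 by DESeq2).

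In A549 without interferon, *ADAR* KO left 0 of 8 tested members past the threshold in edgeR's quasi-likelihood test (0.123% of all genes passed), with 0 at an unadjusted p under 0.05 and 0 by DESeq2. Differences ran from −0.07 (*MLKL* and *CASP8*) to 0.25 (*GSDMD*), apart from *CASP1*, whose 0.84 (standard error 1.16) rests on 2 against 3 reads. The mean KO effect of the ADAR1-dependent lines minus that in A549 with vehicle passed for 0 of 9 members (0.953% of all genes; edgeR's quasi-likelihood test, 0 at an unadjusted p under 0.05, 0 by DESeq2).

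In A549 with IFN-β, *ADAR* KO raised 1 of 8 tested members, *CFLAR* (17% of all genes changed; DESeq2 also called 1). Its values were 138 and 137 CPM with *GFP* and 161 and 199 with *ADAR* sgRNAs, both above the controls, a 1.31-fold difference (log2 0.39, standard error 0.11, edgeR's adjusted p = 0.0109). It was lost without *ADAR* IFN-β sg2 (0.23, adjusted p = 0.371). *CASP1* had a negative estimate, with 8.91 and 8.82 CPM against 7.04 and 6.56 (−0.39, standard error 0.27, adjusted p = 0.343). *MLKL* (0.07), *CASP8* (0.08), *RIPK1* (0.17), *GSDMD* (−0.13), *GSDME* (−0.13) and *FADD* (−0.33) had adjusted p values from 0.250 to 0.725. The interaction, which asks whether the IFN-β effect differs with *ADAR* KO, passed for 0 of 8 members (5.05% of all genes; edgeR's quasi-likelihood test), with 1 at an unadjusted p under 0.05 and 0 by DESeq2. *CFLAR* came nearest (0.42, adjusted p = 0.129).

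**Figure D4:**
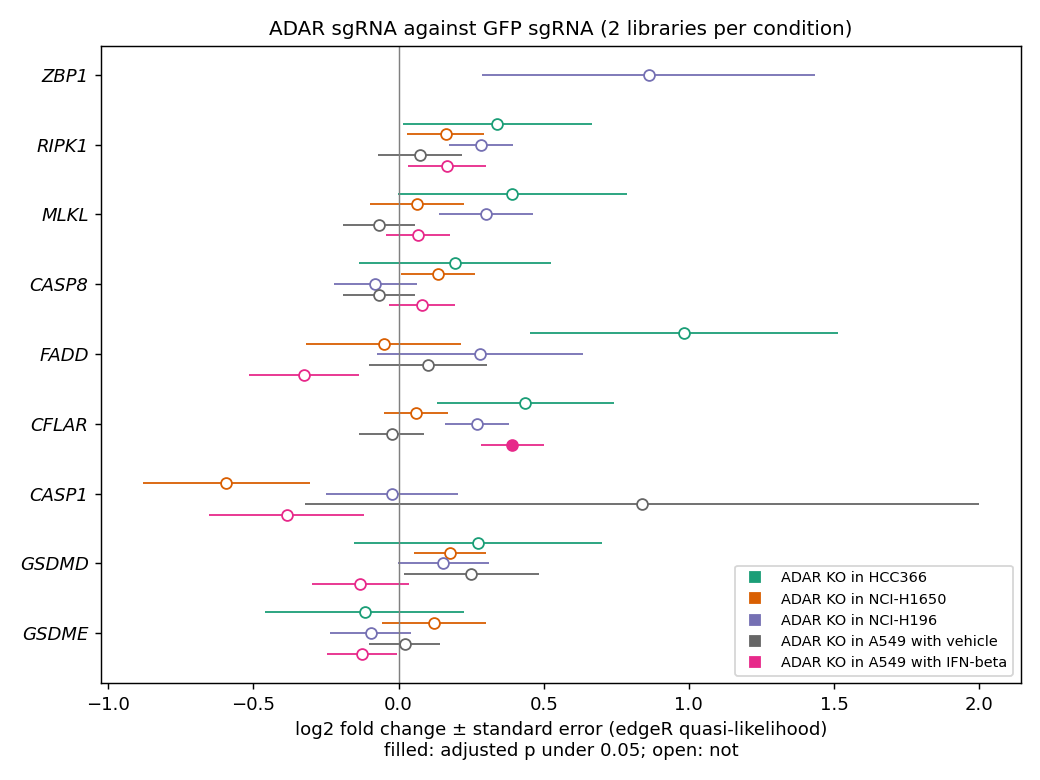
Log2 fold change of *ADAR* against *GFP* sgRNAs (linear axis of log2 values, with standard errors) for the tested genes in each of 5 settings, by colour; filled symbols passed an adjusted p of 0.05 in edgeR's quasi-likelihood test. Only *CFLAR* in A549 with IFN-β is filled, and *FADD* in HCC366 and *CASP1* in A549 with vehicle have the widest standard errors beside *ZBP1*.

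Genes with the profile most like that of a member were listed by Pearson's r of log2 CPM over 19 libraries (without NCI-H196 *GFP* sg2) among 17025 genes. Libraries of a line share that line's background, so r mostly orders lines and conditions, and it is given as a description. For *MLKL* they were *CNP* (r = 0.970), *RNF213* (0.945) and *DNAJC2* (0.942). For *CASP1* they were *GIMAP2* (0.957), *IFI27* (0.946) and *SAMD9L* (0.936), and for *ZBP1*, on its few reads, *TMEM229B* (0.899), *GMPR* (0.886) and *TMEM92-AS1* (0.861). *RIPK3* had too few reads to be ranked.

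Regulators of RIPK1 and of necroptosis signalling were followed as a list beside the members. The list held 28 genes (death receptor adaptors, IAP and linear ubiquitin ligases, deubiquitinases, kinases and chaperones). In the joint fit of the ADAR1-dependent lines 4 of 28 rose and 0 fell (5.30% of all genes passed), with a list median of 0.24 against −0.0066 over all genes. The largest was *TNFAIP3*, which encodes the deubiquitinase A20, a brake on NF-κB and on RIPK3-driven death. It gave 363 and 268 CPM in HCC366 controls and 1069 and 1440 with *ADAR* sgRNAs, 108 and 73.8 against 277 and 328 in NCI-H1650, and 158 and 117 against 499 and 543 in NCI-H196. Every *ADAR* library lay above every control of its line, with a log2 difference of 1.82 (adjusted p = 2.62e-06, standard error 0.15). *CYLD*, another deubiquitinase of RIPK1 (0.90), *TICAM1*, the RHIM adaptor of TLR3 (0.87), and *PELI1*, a ubiquitin ligase (0.74), followed (adjusted p = 0.00228, 0.00728 and 0.0192). In single lines 1 of 27 rose in HCC366 (1.25% of all genes passed), and 5 of 28 rose and 1 fell in NCI-H1650 (8.60%). In NCI-H196 9 of 27 rose (17.8%), where *BIRC3*, which encodes the ubiquitin ligase cIAP2, was 1.08 higher. Over all genes, DESeq2 called far fewer in NCI-H196 than edgeR did, as the closing section gives. The control *GFP* sg2 of that line had 62679 reads. Both limits also apply to the NCI-H196 counts of the lists below. In A549 with vehicle 0 of 28 passed edgeR's quasi-likelihood test (0.123% of all genes did).

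*TLR3*, the double-stranded RNA receptor, passed the filter through the IFN-β libraries of A549 alone and is left out of the counts. In control cells it gave 0.40 and 1.00 CPM after vehicle and 25.5 and 21.2 after IFN-β. IFN-β raised 7 of the 27 other regulators in control cells (median 0.17), where 5.70% of all genes changed. *RBCK1* (1.34), *BIRC3* (1.27) and *TRADD* (0.96) rose most among them. With *ADAR* sgRNAs IFN-β raised 14 and lowered 2 of these 27, where 24.5% of all genes changed. *TNFAIP3* gave 10.8 and 12.6 CPM (*GFP*, vehicle), 21.9 and 22.4 (*GFP*, IFN-β), 13.4 and 15.9 (*ADAR*, vehicle) and 151 and 221 (*ADAR*, IFN-β). The combined condition thus stood apart from the other 3, and with IFN-β the KO effect was 3.07 (adjusted p = 1.52e-15). *BIRC3* gave 65.7 and 74.7, 185 and 156, 74.9 and 77.7, and 446 and 660 CPM in the same order, with a KO effect under IFN-β of 1.70 (adjusted p = 2.85e-11). In all, *ADAR* KO under IFN-β raised 9 and lowered 2 of the 28 (17% of all genes changed), *CYLD* (1.13) and *BIRC2*, which encodes cIAP1 (1.00), among the 4 largest.

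**Figure D5:**
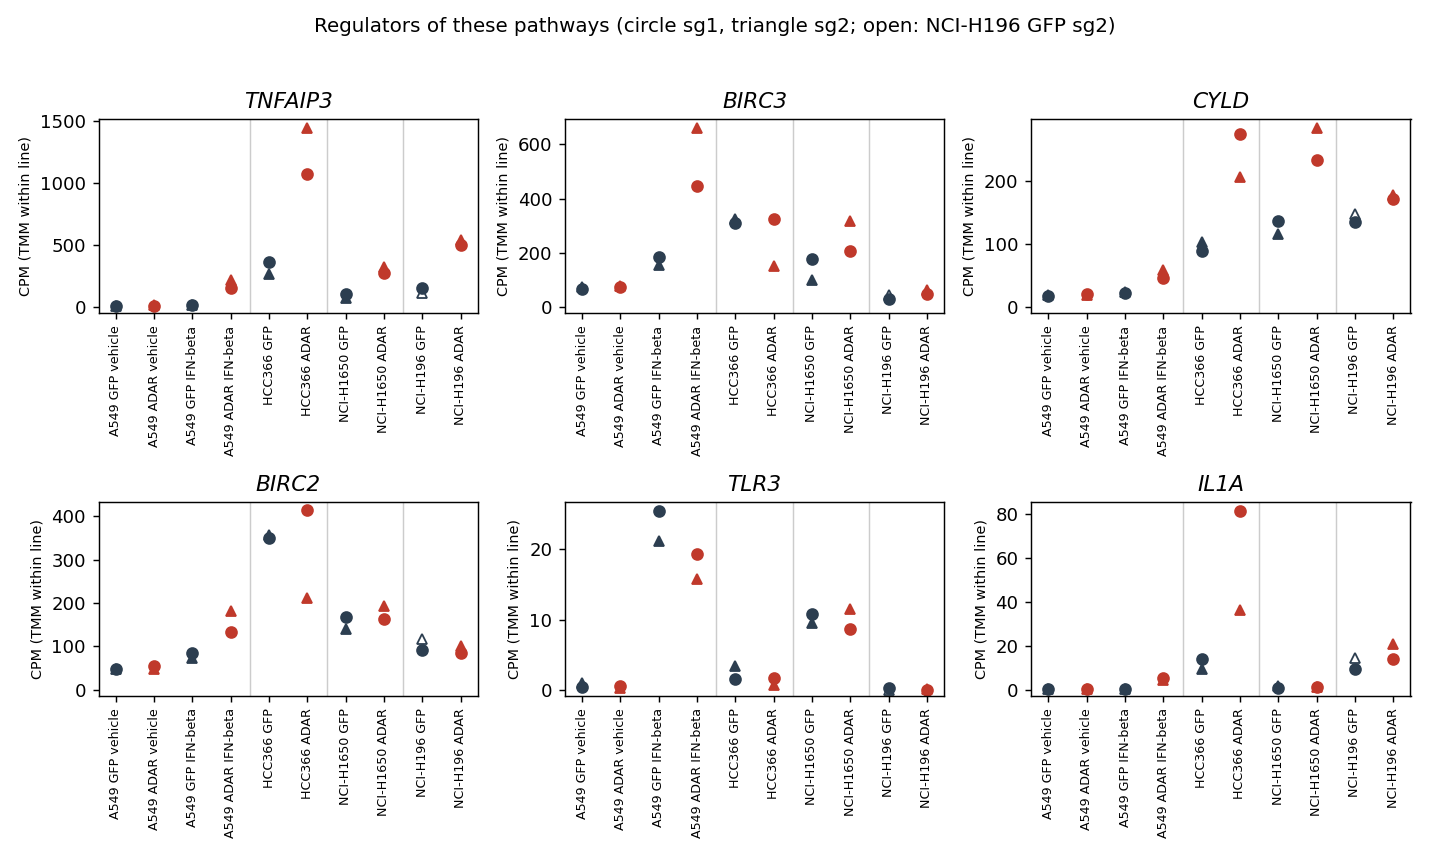
CPM (scaled within a line, linear axis that differs between panels) of 5 regulators around RIPK1 and of *IL1A* in the 20 libraries; circles are sg1, triangles sg2, dark symbols *GFP*, red symbols *ADAR* sgRNAs, and NCI-H196 *GFP* sg2 is open. *TNFAIP3* stands higher with *ADAR* sgRNAs in all 3 ADAR1-dependent lines and, in A549, at 151 and 221 CPM only when IFN-β is added.

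The pyroptosis list held 24 genes besides the members. In the joint fit of the ADAR1-dependent lines 6 of 19 tested rose and 0 fell (median 0.32), where 5.30% of all genes passed. *IL1A* (1.47) and *IL1B* (1.46), the interleukin-1 cytokines released by lysis, led, before *GBP2* (1.19) and *GBP5* (1.15), interferon-induced GTPases that help open inflammasome signalling. *GBP5* gave 3.87 and 6.59 CPM against 11.4 and 11.6 in HCC366, 9.04 and 8.36 against 17.5 and 22.6 in NCI-H1650, and 37.7 and 58.6 against 98.5 and 90.3 in NCI-H196. By line, 4 of 14 rose in NCI-H1650 (8.60% of all genes passed). In HCC366, 3 of 14 passed the filter through *ADAR* libraries alone, *IL1B* (3.02) among them, and 0 of the 11 others rose (1.25%). In NCI-H196, 8 of 18 passed the filter through *ADAR* libraries alone, and 8 of the 10 others rose (17.8%). In NCI-H196 *MEFV*, the pyrin inflammasome sensor, was 1.74 higher. In A549, 4 of 12 tested (*NLRP1*, *IL1A*, *GBP2* and *GBP5*) passed the filter through IFN-β libraries alone. Of the 8 others IFN-β raised 2 in control cells and 4 with *ADAR* sgRNAs, where 5.70% and 24.5% of all genes changed, with *GBP1* going from 3.56 and 2.79 to 120 and 130 CPM and *CASP4*, the inflammatory caspase for cytosolic lipopolysaccharide, 1.99 higher on the log2 scale in control cells. *ADAR* KO moved 0 of 12 in A549 with vehicle. With IFN-β it moved 0 of 11, besides *IL1A*, which passed the filter through those *ADAR* libraries alone and went from 6 and 5 reads with *GFP* to 51 and 82 with *ADAR* sgRNAs.

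Apoptotic caspases and their cofactors (12 genes) were followed as the last list. *ADAR* KO moved 0 of 12 in the joint fit (median −0.15), 0 of 10 in HCC366 and 1 of 12 in NCI-H1650 (*CYCS*, −0.38, with 8.60% of all genes). In NCI-H196, 3 of 12 (*CASP6*, *DIABLO* and *CRADD*) passed the filter through *ADAR* libraries alone. Of the 9 others, *BID* (0.88) and *CASP10* (0.58) rose and 2 fell, *APAF1* (−0.37) among them, where 17.8% of all genes changed. IFN-β raised 2 of 12 in each A549 arm (5.70% and 24.5% of all genes changed), in both cases with *CASP10*, a relative of caspase-8, among them (1.16 and 1.24). With IFN-β, *ADAR* KO raised 1 of 12, *PEA15* (0.68), where 17% of all genes changed.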

How the data were processed

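RNA was depleted of ribosomal RNA, made into directional libraries and sequenced as paired-end reads by the authors, who aligned to hg19 with STAR and counted with HTSeq (versions, annotation release and strand setting are not given in the sources used here). The deposited values are raw read counts for 58233 Ensembl identifiers, 20 libraries, with 5 summary lines per file left out. Symbols matched 55727 identifiers, with 97.4% of the counts. Gene positions are GRCh37 (a GENCODE annotation mapped to it), promoters RefSeq GRCh38.p14.

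The fits used edgeR 4.0.16 and limma 3.58.1 under R 4.3.3, with the quasi-likelihood test, TMM scaling and filterByExpr (minimum count 10, total 15). P values were adjusted by Benjamini-Hochberg over all genes tested, with a threshold of 0.05. DESeq2 1.42.0 was an alternative. Fold changes used a prior count of 0.125. Each ADAR1-dependent line, the 12 libraries of the 3 lines, the 8 A549 libraries, the 8 controls and all 20 libraries had fits of their own. The scripts were checked on simulated counts. Libraries held 62679 to 19520189 gene reads. Counting intervals (95%) and the floor of 3 reads cover counting error only.

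The members and lists were chosen with earlier results of these data known. The rule names all 10 members in every comparison, *ADAR* as the check, at most the 4 largest called genes of each list, and the 3 genes nearest to *ZBP1*, *RIPK3*, *MLKL* and *CASP1* (10 reads in at least 4 libraries, prior count 2). *INSM1* and other markers were used as descriptions only. Some items of the lists are not reported here. Same-numbered sgRNAs against different targets are different sgRNAs. The check of whether their libraries deviate together, and what the alternatives changed, are given in the closing section.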

Additional observations from a re-analysis of the deposited data

Results flagged for a closer look

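None of the 10 members met a rule for a closer look, and groups of 2 libraries allow no test for a stray library. Among the regulators, these were picked out because their response to IFN-β in A549 differed between *ADAR* and *GFP* sgRNAs, by the interaction term of edgeR's quasi-likelihood test (log2 difference, adjusted p from 3.24e-09 to 0.0492): *TNFAIP3* (2.77), *BIRC3* (1.59), *TAB2* (1.11), *CYLD* (1.06), *BIRC2* (0.91), *TRAF2* (0.68) and *HSP90AA1* (−0.45). *IL1A* (3.57) from the pyroptosis list met the same rule. It passed the filter on low counts through the *ADAR* IFN-β libraries alone, so its flag is no support for a difference. *TNFAIP3* was also picked out because its *ADAR* KO effect in the ADAR1-dependent lines exceeded that in A549 with vehicle, with a log2 difference of 1.52 (adjusted p = 0.00459, standard error 0.28). *IL1B* was picked out because its KO effect differed among the 3 dependent lines (adjusted p = 0.0448). It gave 3.10 and 4.87 CPM in HCC366 controls against 33.2 and 36.2 with *ADAR* sgRNAs, 163 and 132 against 280 and 311 in NCI-H196, and had at most 5 reads in any NCI-H1650 library.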

How the results depend on the processing

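The calls that *GSDMD*, *MLKL*, *CASP8* and *CFLAR* rose with IFN-β in both A549 arms held in each of the 11 alternatives per arm. The number of members called, *CASP1* included, stayed at 5 to 7 in control and 5 to 6 in *ADAR* cells with each library left out. The KO results moved more. Across the 3 dependent lines, 0 members became 2 with DESeq2 (*RIPK1*, *CFLAR*) and 1 with all 20 libraries in one fit (*CASP1*). In HCC366, 0 became 1 with GC and length offsets (*CFLAR*), 1 with all 20 libraries in one fit (*FADD*) and 1 with a replicate block and those offsets (*CFLAR*). With each library left out the range was 0 to 2 there, 0 to 1 for the difference among the 3 lines (*FADD*, without HCC366 *ADAR* sg1) and 0 to 1 for the interaction (*CFLAR*, without *ADAR* IFN-β sg1). For *ADAR* KO with IFN-β, 1 became 0 with all 20 libraries in one fit, and the range with a library left out was 0 to 1 (*CFLAR*, lost without *ADAR* IFN-β sg2). The cause of these shifts was not tested.

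Of 1624 alternative fold changes, 1483 kept direction and side of the threshold, 54 lost and 24 gained the call, 59 changed sign with neither value past it, and 4 changed sign where the reported value had passed. These 4 arose without NCI-H196 *GFP* sg1, which leaves 62679 reads for that control. With a library left out, *CASP8* (HCC366 minus NCI-H196) ran from −0.20 to 0.47, *CASP1* (same pair) from −3.99 to 6.73, *MLKL* (NCI-H196 minus A549) from −0.72 to 0.20 and *CASP1* (NCI-H196 minus A549) from −2.36 to 6.86.

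Deviations of same-numbered libraries correlated at −0.253 in HCC366 and between −0.0784 and 0.0368 elsewhere, so the numbers gave little sign of pairing. In A549, vehicle and IFN-β libraries of the same target and number carry the same sgRNA, and the main fit did not use this pairing. Their deviations correlated at −0.0592 (*GFP*) and −0.0048 (*ADAR*). With a block by sgRNA the interaction of *ADAR* itself passed edgeR's quasi-likelihood test (adjusted p = 0.0404, against 0.145 in the main fit). The *ADAR* call in NCI-H196 was lost with the replicate block (adjusted p = 0.518). With that block the members called were 0 in each dependent line and across them, 1 for *ADAR* KO with IFN-β, 5 and 6 for IFN-β and 7 among controls. The counts for IFN-β and among controls include *CASP1*, whose calls are no support for a difference. The crossed block in HCC366, added after seeing the data, also called 0. Counts over all genes depended more on the choices. NCI-H196 had 2513 changed genes with edgeR and 11 with DESeq2, 98 with all 20 libraries, 1552 without the filter and 115 with the block. HCC366 had 139, against 308 with DESeq2, 985 with offsets, 3701 with all 20 libraries, 903 without the filter, 300 with the block, 1499 with both offsets and block, and 960 when the block was crossed. NCI-H1650 had 1250, against 389 with DESeq2 and 159 with all 20 libraries. Across the lines 876 became 3148 with all 20 libraries, 1829 without the filter and 362 with the block. All 20 libraries in one fit gave 1087 for 2622 (KO with IFN-β), 2067 for 3788 and 531 for 880 (IFN-β), 164 for 780 (interaction) and 450 for 116 (difference among lines, 471 without the filter). KO with vehicle had 19, against 4 with DESeq2, 5 with all 20 libraries and 30 without the filter. The dependent lines minus A549 had 186, against 111 without the filter and 109 with the block. Among controls 14697 became 7655 with DESeq2, and the 6 pairs from 9050 to 11252 became 3757 to 5523. Values of *ZBP1*, *RIPK3* and *CASP1* in A549 after vehicle and in HCC366 rest on 0 to 13 reads a library, and depth limits them.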
